A study of Mus musculus with 24 samples.

Results

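The cytosolic ribosomal protein genes were followed in the livers of 24 female NMR1 mice fed 4 diets. Members were chosen by name alone: every probe set (a group of oligonucleotides read as 1 value) whose single gene symbol was Rpl or Rps with a number and an optional a, l, x or y ending, or Rplp0, Rplp1, Rplp2 or Rpsa. The rule left out Rps6k kinases and pseudogene symbols, and found 100 of 45037 probe sets and 46 of 18193 genes. Of these genes, 24 belonged to the large subunit and 22 to the small subunit by their symbols. A further 110 probe sets carried a ribosomal protein symbol together with others and were not used, among them the only one for Rplp1. They held 43 symbols of the rule, 28 of which had no probe set of their own.

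All mice were 8 weeks old at the start, had been raised on pellets, and ate 1 diet for 2 weeks, with 6 mice per diet. The pellet diet was standard mouse feed. The chimpanzee diet was made of fruit, vegetables and yogurt, the cafeteria diet of cooked staff meals and the fast food diet of nothing but purchased fast food. The cafeteria and fast food mice were also pooled as 12 mice on human diets. Each diet had 3 mice in each of 2 batches of RNA processing, with 1 array per mouse.

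A ribosome translates mRNA into protein. Its small subunit decodes the message, and its large subunit joins amino acids and carries a flexible stalk that recruits elongation factors. Each subunit is built on ribosomal RNA from about equal amounts of its proteins, so their genes are known for steady, coordinated expression. The mRNAs of most vertebrate ribosomal proteins begin with a run of C and T (the terminal oligopyrimidine tract), through which mTORC1, a nutrient-sensing kinase complex, controls their translation. Arrays of total RNA measure the amount of an mRNA and not its translation. In liver, which secretes most plasma proteins, these mRNAs are abundant.

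The start of transcription is shown for the gene that passed the test, for the paralog pair described below, and for 2 other genes that the results name. RefSeq windows (build GRCm38.p6) were found for 40 of the 46 genes, in 48 windows. A run of at least 8 C or T within 25 bases of the start was present in 22 of 48 windows (45.8%), against 6464 of 32851 windows of all genes (19.7%). The motif CCGGAAG, searched on both strands over 300 bases, was present in 20 of 48 windows (41.7%) and in 8.9% of all windows. TATAAA, searched on the transcribed strand in the 50 bases before the start, was found in 0 of 48 windows and in 2.6% of all. On the other strand CCGGAAG reads CTTCCGG, whose first letters can be part of a C and T run, and a match is a description of the letters only. The following stretches hold 40 bases before the start and 20 from it, and capitals mark the longest run of C and T from 25 bases before the start onward, or every such run where lengths are equal. They lie at chr9:120571477-120571536 (plus strand) for Rpl14, chr3:90213629-90213688 (minus strand) for Rps27, chr9:66946046-66946105 and chr9:66946373-66946432 (plus strand) for 2 starts of Rps27l, chr7:109519155-109519214 (plus strand) for Rpl27a and chr17:24720023-24720082 (plus strand) for Rps2.
Rpl14: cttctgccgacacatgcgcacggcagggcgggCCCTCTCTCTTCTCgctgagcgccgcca
Rps27: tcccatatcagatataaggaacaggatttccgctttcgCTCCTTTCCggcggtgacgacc
Rps27l, upstream start: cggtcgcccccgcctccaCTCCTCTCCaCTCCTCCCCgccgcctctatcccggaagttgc
Rps27l, downstream start: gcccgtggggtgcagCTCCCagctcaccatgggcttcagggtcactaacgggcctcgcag
Rpl27a: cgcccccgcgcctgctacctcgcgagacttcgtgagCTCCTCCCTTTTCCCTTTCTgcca
Rps2: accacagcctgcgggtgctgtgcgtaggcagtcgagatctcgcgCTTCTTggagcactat
The run was 20 bases long in Rpl27a and 14 in Rpl14, and in both it spanned the start. It was 9 bases long in Rps27, also across the start. In Rps27l 2 runs of 9, parted by 1 base, lay upstream of the first start, and the second start had a run of 5.

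Expression values are log2 units from the robust multichip average, and a difference of 1 is a doubling. A probe set was tested when 6 or more of the 24 arrays exceeded 3.15, the median over the whole table, and a gene was read from its brightest probe set. Of the 100 member probe sets 86 passed, and of the 46 genes 44 were tested among 13385. Rpl39l and Rps16 did not pass, at mean values of 2.50 and 2.70 with 0 of 24 arrays above that level. The arrays of batch 2 had a lower 90th percentile than those of batch 1 (6.05 ± 0.20 and 6.51 ± 0.068, SD, n = 12). The difference between the 3' and 5' beta-actin controls, a sign of RNA quality, averaged 0.75 ± 0.14 in pellet, 0.85 ± 0.11 in human-diet and 1.08 ± 0.15 in chimpanzee mice. It differed between human and chimpanzee diets (exact permutation p = 0.000992, adjusted 0.0119) and between chimpanzee and pellet diets (exact permutation p = 0.005, adjusted 0.03). Of 12 hepatocyte markers listed 10 were tested. In every array 9 of them were at 9.21 (Hnf4a) or above, with Alb at 12.5 or above, whereas Ass1, an enzyme of the urea cycle, was read at a mean of 4.77 (lowest array 4.12).

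The 44 tested genes fell into 34 with a mean signal above 9 and 10 at or below 6.25, a split made after the levels were seen. The bright genes ran from 9.37 (Rps19) to 11.15 (Rps2, a small subunit protein at the mRNA entry side). The others were Rpl37, Rps4l, Rps6, Rpl27a, Rpl39, Rps25, Rps27, Rpl14, Rpl3l and Rpl12. Signal depends on how well probes bind, so this order is not one of mRNA amount: Rps6 and Rpl39 encode core ribosomal proteins and were read here at 4.89 and 4.32. For Rps6, 9 more probe sets carried several symbols, and for Rpl14 there were 5.

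The 34 bright genes moved together from mouse to mouse. After batch means were removed, each bright gene correlated with the mean of the other members at a median r of 0.84 (range 0.60 to 0.95, 24 mice), whereas the 10 dim genes had a median of 0.31 (-0.13 to 0.55). These are descriptions: all genes of an array share its signal range, and the 90th percentiles of the arrays ran from 5.67 to 6.62. The part of that range in the correlations was not tested. The mean of the bright genes lay between 10.11 and 10.44 in the 6 pellet mice (median 10.32) and between 10.145 and 10.37 in the chimpanzee mice (median 10.28). In the cafeteria mice it lay between 10.18 and 10.43 (median 10.37). In the fast food mice it reached from 9.86 to 10.48 (median 10.31). The 4 diets overlapped, and 1 mouse, fast food batch 2 replicate 2, lay below all the others. That mouse was the lowest of its diet for 33 of the 34 genes and the lowest of all 24 mice for 31. The 90th percentile of its array was 5.86. It was lower in cafeteria batch 2 replicate 3 (5.67, mean of the bright genes 10.28) and in chimpanzee batch 2 replicate 1 (5.80, mean 10.35). The diet means were 10.287 ± 0.135 (pellet), 10.275 ± 0.087 (chimpanzee), 10.343 ± 0.097 (cafeteria) and 10.272 ± 0.225 (fast food, SD, n = 6 each).

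**Figure D1:**
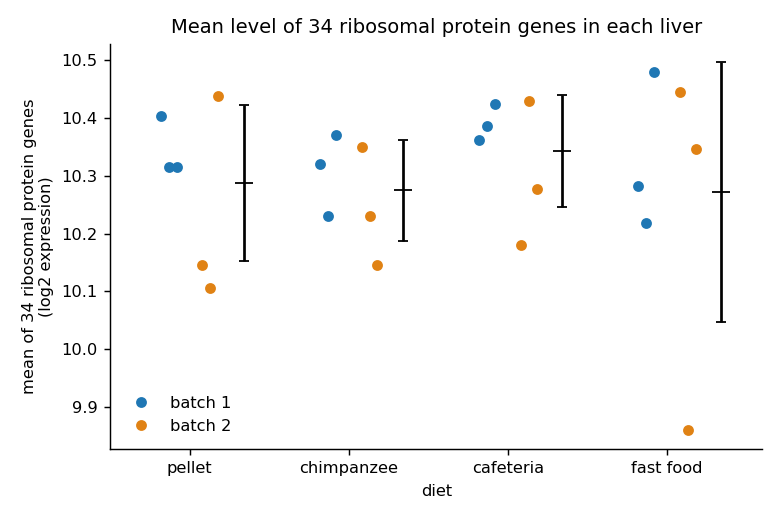
Mean log2 expression of the 34 bright ribosomal protein genes in each mouse. Points are mice (blue for batch 1, orange for batch 2) and bars give mean ± SD per diet. The diets overlap, and 1 fast food mouse of batch 2 lies at 9.86, below the other 23.

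Across the 4 diets, 1 of the 44 genes, Rpl14, passed limma's moderated F test of diet (adjusted p = 0.016, called below 0.05), as did 9% of all 13385 genes. Its probe set passed the filter only through the human-diet mice, in which it was higher, so this call is not a result for the list. At an unadjusted p under 0.05 there were 2 members (4.55%), against 20.8% of all genes. With every probe set tested on its own, 1 of 86 passed, against 7.22% of all 25544. Rps27l was next (adjusted p = 0.086), then Rpl27a (adjusted p = 0.33). The other 41 genes had adjusted p values of 0.38 or above.

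The comparison of human with chimpanzee diets addresses the study's main question, how a human diet and that of a chimpanzee differ in their effect on liver. Of the 44 genes 1 rose and 0 fell, against 1.49% of all genes called (1.15% higher and 0.344% lower). The 1 gene was Rpl14, whose call has the same limit. Among single probe sets 1 of 86 passed, against 0.767% of all. At an unadjusted p under 0.05 there were 3 members (6.82%) and 14.3% of all genes. The median difference was 0.027 over the 44 genes and 0.0040 over all genes. The median size of a difference was 0.042 in the members and 0.086 in all genes. Bright genes differed by -0.049 to 0.31, and the 95% intervals of 33 of the 34 lay within 0.5 of 0 (intervals here use the moderated SE and the residual degrees of freedom). The exception was Rps27l. The large subunit genes had a median of 0.035 (23 genes) and the small subunit genes one of 0.025 (21 genes).

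Rpl14, a protein of the large subunit, was the gene that passed. Its log2 values ran from 2.84 to 3.36 in the chimpanzee mice (median 3.01, n = 6), from 3.23 to 3.90 in the cafeteria mice (median 3.43) and from 3.26 to 3.67 in the fast food mice (median 3.48). All 12 human-diet mice lay above the chimpanzee median, and 9 of 12 lay above every chimpanzee mouse, so the groups overlapped in part. The difference was 0.42 ± 0.092 SE (1.33-fold, 95% interval 0.22 to 0.61, adjusted p = 0.028, limma), and it was 0.46 in batch 1 and 0.37 in batch 2. These values lay at the level of the filter: 12 of 12 human-diet arrays, 4 of 6 pellet arrays and 1 of 6 chimpanzee arrays were above it. The probe set therefore passed the filter only through the group in which it was higher, since the other 12 arrays held 5 above that level and the filter asked for 6, so its call is given as a value and not as a result for the list. With no filter the difference was also 0.42 (adjusted p = 0.035). The call was lost without each of chimpanzee batch 1 replicates 1, 2 and 3, chimpanzee batch 2 replicates 1 and 2, and cafeteria batch 1 replicate 2 (adjusted p 0.052 to 0.088). Over all mice left out in turn the difference ran from 0.38 to 0.48. The call was also lost in batch 1 alone (adjusted p = 0.053), in batch 2 alone (adjusted p = 0.91), with batch left out (adjusted p = 0.079) and without the 4 arrays of lowest signal range (adjusted p = 0.069). Over all genes, 200 passed in the main fit, 107 in batch 1 alone and 1 in batch 2 alone. With batch left out 34 passed, and without the 4 arrays 369. With the beta-actin 3' to 5' difference, which also differed between these groups, as a covariate the difference was 0.43 (adjusted p = 0.39). With that covariate calls over all genes fell from 200 to 5. Of 12 endothelial, stellate and bile duct markers, 1 rose in this comparison, the collagen gene Col3a1 (0.87 ± 0.22 SE, adjusted p = 0.049). With the beta-actin covariate 0 of these 12 passed. Their mean level was 4.11 to 4.43 in the chimpanzee mice, 4.27 to 4.53 in the cafeteria mice and 4.34 to 4.67 in the fast food mice. Of the hepatocyte, macrophage, lymphocyte, erythroid and proliferation markers 0 passed here. In bulk tissue, fewer cells of a type and less RNA per cell cannot be told apart.

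Rps27l, a paralog of the small subunit protein gene Rps27, came nearest among the bright genes. Its log2 values were 9.13 to 9.65 in the chimpanzee mice (median 9.44), 9.35 to 9.84 in the cafeteria mice (median 9.80) and 9.17 to 9.91 in the fast food mice (median 9.76). Of the 12 human-diet mice 10 lay above every chimpanzee mouse. The other 2 were fast food batch 2 replicate 2 (9.17) and cafeteria batch 2 replicate 3 (9.35). The difference of 0.31 ± 0.092 SE (1.24-fold, 95% interval 0.12 to 0.51) did not pass the test (adjusted p = 0.095) and was 0.23 in batch 1 and 0.39 in batch 2. Its 3 probe sets, at mean levels of 9.16 to 9.58, gave 0.25, 0.29 and 0.31. It passed without fast food batch 2 replicate 2 (0.35, adjusted p = 0.022), without cafeteria batch 2 replicate 3 (0.34, adjusted p = 0.039), with array weights (0.34, adjusted p = 0.0062) and without the 4 arrays of lowest signal range (0.35, adjusted p = 0.027). Over all genes those fits called 2.97%, 4.95%, 9.5% and 2.76%, against 1.49% in the main fit. Over the alternatives other than single mice left out, the adjusted p of Rps27l ran from 0.0062 to 0.91.

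Rps27 itself, read from 1 dim probe set, was 3.80 to 4.18 in the chimpanzee mice (median 3.96) and 3.73 to 4.12 in the human-diet mice (median 3.91). The ranges overlapped, and the difference was -0.059 ± 0.066 SE (95% interval -0.20 to 0.081, adjusted p = 0.77). Whether it differed from that of Rps27l was not tested. For Rps27, 1 more probe set carried several symbols and was not used. The Rps27l probe sets that gave 0.31 and 0.25 between human and chimpanzee diets have names ending in _x_at, which can bind transcripts of related sequences. The Rps27l probe set that gave 0.29 ends in _a_at, which marks several transcripts of 1 gene. Rpl27a, a large subunit protein, had the third smallest p. It was 4.17 to 4.83 in the chimpanzee mice (median 4.54) and 4.42 to 5.73 in the human-diet mice (median 4.82), a difference of 0.38 ± 0.16 SE (95% interval 0.041 to 0.71, adjusted p = 0.26).

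**Figure D2:**
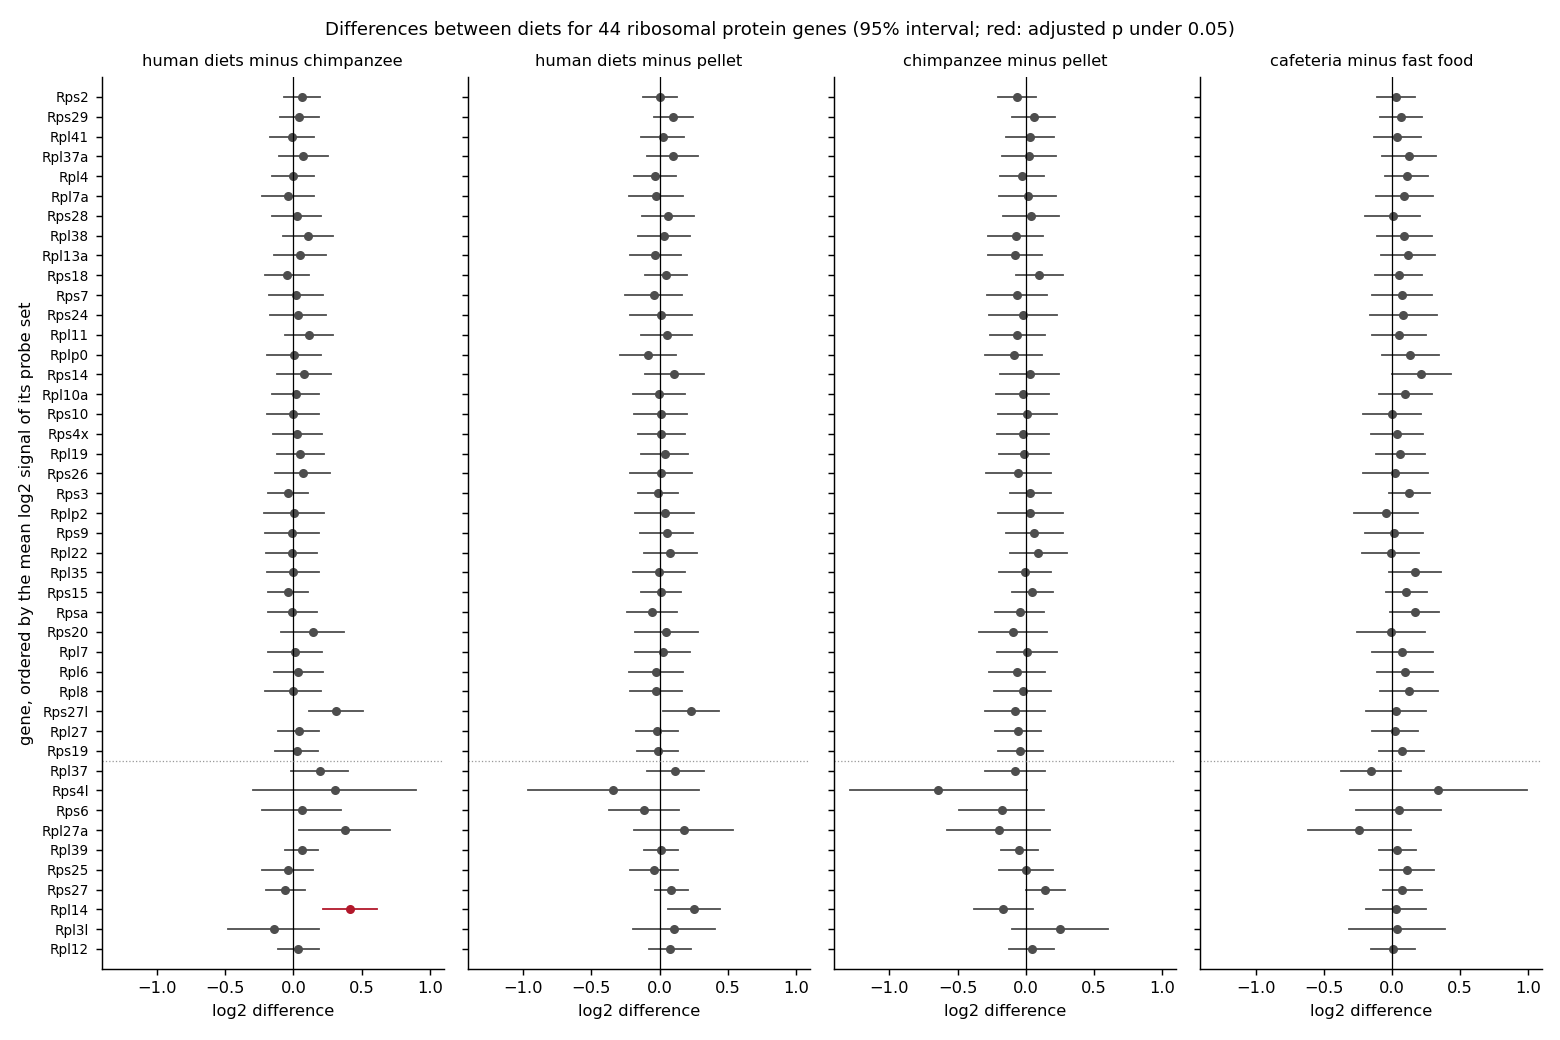
Log2 differences between diets (points) with 95% intervals (lines) for 44 ribosomal protein genes in 4 comparisons, ordered by mean signal, with a dotted line between the 34 bright and the 10 dim genes. Rpl14 in the comparison of human diets and chimpanzee diet (red, 0.42) is the gene that passed the adjusted threshold, and the bright genes lie close to 0, with Rps27l at 0.31 in the first panel. Rpl14 passed the filter only through the human-diet mice.

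Between human and pellet diets, 0 of the 44 genes passed, against 4.98% of all genes (2.15% higher and 2.82% lower). Among single probe sets 0 of 86 passed, against 4.03% of all. At an unadjusted p under 0.05 there were 2 members (4.55%), Rpl14 and Rps27l, and 14.5% of all genes. The median difference was 0.012 over the members and -0.0057 over all genes. Bright genes differed by -0.087 (Rplp0) to 0.23 (Rps27l), and all 34 intervals lay within 0.5 of 0.

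Rpl14 was 2.96 to 3.35 in the pellet mice (median 3.26), and 9 of 12 human-diet mice lay above all of them. The difference was 0.25 ± 0.091 SE (95% interval 0.060 to 0.45, adjusted p = 0.14), with 0.25 in each batch. It passed with the 90th percentile of the array as a covariate (0.27, adjusted p = 0.033) and with array weights (0.27, adjusted p = 0.028). Over all genes those fits called 10.4% and 9.88%. In the other 37 settings, each mouse left out included, Rpl14 did not pass. Rps27l was 9.25 to 9.75 in the pellet mice (median 9.49), with 7 of 12 human-diet mice above all of them. Its difference was 0.23 ± 0.096 SE (95% interval 0.027 to 0.44, adjusted p = 0.24). It passed after quantile normalization (0.21, adjusted p = 0.036), with the 90th percentile of the array as a covariate (0.26, adjusted p = 0.016), with array weights (0.29, adjusted p = 0.013) and without the 4 arrays of lowest signal range (0.31, adjusted p = 0.0086). Over all genes those fits called 8.68%, 10.4%, 9.88% and 8.79%. In the other 34 settings, each mouse left out included, Rps27l did not pass. Rps27 had the third smallest p. It was 3.78 to 3.90 in the pellet mice (median 3.82), and 7 of 12 human-diet mice lay above all of them (0.086 ± 0.057 SE, 95% interval -0.035 to 0.21, adjusted p = 0.61).

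**Figure D3:**
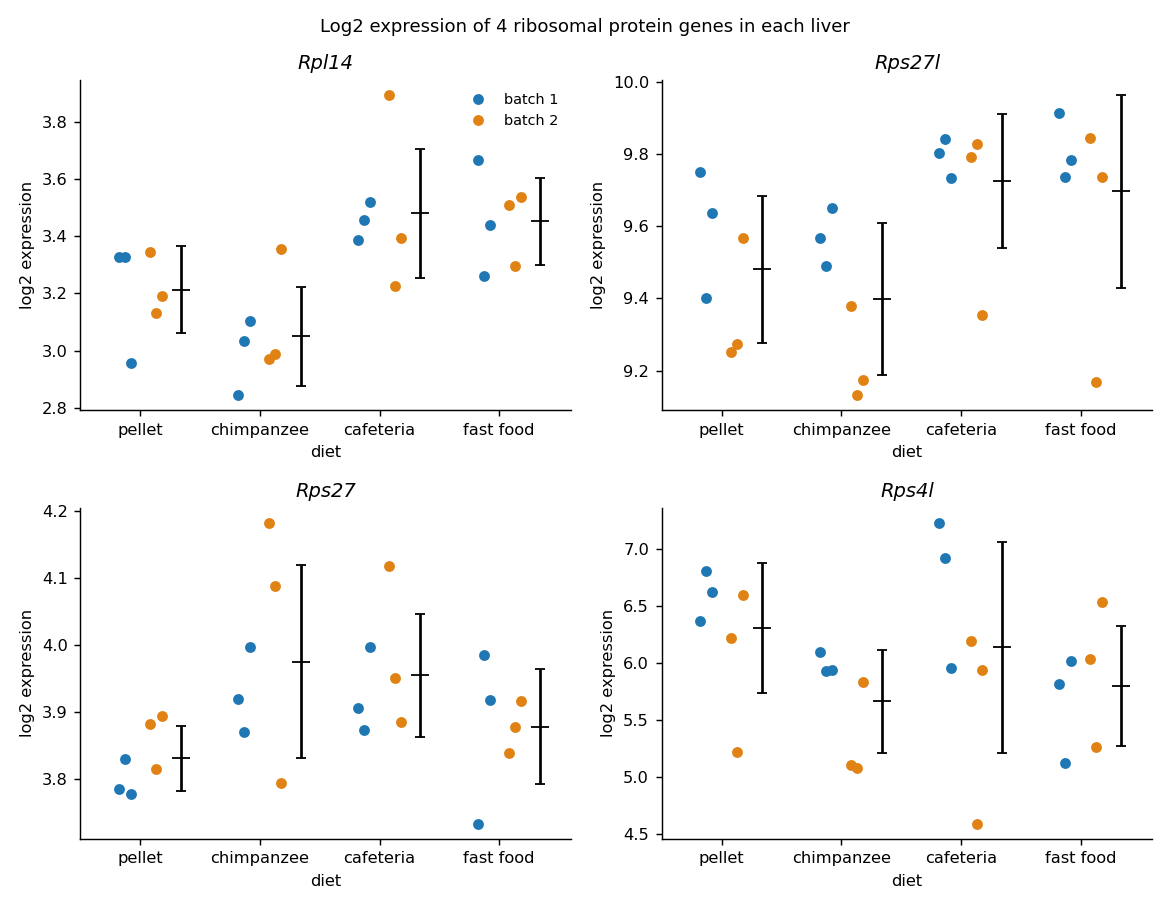
Log2 expression of Rpl14, Rps27l, Rps27 and Rps4l in each mouse. Points are mice (blue for batch 1, orange for batch 2) and bars give mean ± SD per diet (6 mice). Rpl14 lies at 2.84 to 3.36 in the chimpanzee mice and at 3.23 to 3.90 on the human diets, and 2 batch 2 mice on the human diets lie low for Rps27l, at 9.17 and 9.35.

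Between chimpanzee and pellet diets, the pair with the most called genes (10.4%, of which 2.93% higher and 7.43% lower), 0 of the 44 ribosomal protein genes passed. Among single probe sets 0 of 86 passed, against 8.69% of all. At an unadjusted p under 0.05 there were 2 members (4.55%) and 22.1% of all genes. The median difference was -0.022 over the members and -0.0044 over all genes, and the median size was 0.051 against 0.11. Bright genes differed by -0.093 (Rps20) to 0.098 (Rps18), with all 34 intervals between -0.34 and 0.30. In these genes, changes of more than about 1.27-fold lay outside the intervals.

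The largest difference was that of Rps4l, which RefSeq lists as a transcribed pseudogene related to Rps4x. It was 5.22 to 6.81 in the pellet mice (median 6.48) and 5.07 to 6.10 in the chimpanzee mice (median 5.88). All 6 chimpanzee mice lay below the pellet median, but the ranges overlapped, and the difference of -0.64 ± 0.31 SE did not pass (95% interval -1.29 to 0.0050, adjusted p = 0.22). It was -0.61 in batch 1 and -0.68 in batch 2. Rps4x, the functional X-linked gene, differed by -0.018 (adjusted p in all 4 comparisons above 0.9). Rps27 was higher under the chimpanzee diet by 0.14 ± 0.068 SE (95% interval 0.0030 to 0.29, adjusted p = 0.21), with 4 of 6 chimpanzee mice above all pellet mice. Rpl14 differed by -0.16 ± 0.10 SE (adjusted p = 0.39).

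Factors that build and use ribosomes were counted beside their proteins, from lists chosen with earlier results known. Of 51 ribosome biogenesis genes, 6 rose and 1 fell under the chimpanzee diet against pellets (median of the list 0.11, of all genes -0.0044). The largest were Tsr1, which matures the small subunit (0.69 ± 0.17 SE, adjusted p = 0.010), Nolc1, a nucleolar phosphoprotein (0.59 ± 0.12 SE, adjusted p = 0.0023), and Wdr43, of the early small subunit precursor (0.47 ± 0.12 SE, adjusted p = 0.016). Imp4, of the same precursor, fell (-0.25 ± 0.074 SE, adjusted p = 0.029). Under the human diets against pellets, 3 of 51 rose, Nolc1 (0.48), Utp18 (0.44) and Riok2 (0.38), and 0 fell. Human and chimpanzee diets differed in 0 of 51, and the cafeteria and fast food diets in 0 of 51. Over all genes 2.93% rose and 7.43% fell in the first of these comparisons, and 2.15% rose and 2.82% fell in the second; nothing particular to the list is read from its counts. The comparisons with pellets share the 6 pellet mice. The beta-actin 3' to 5' difference was higher by 0.325 in the chimpanzee mice than in the pellet mice (exact permutation p = 0.005, adjusted 0.03). With it as a covariate, an alternative added after the data were seen, 0 of 51 passed between chimpanzee and pellet diets (median 0.13), as calls over all genes fell from 1387 to 211, and 2 of 51 rose between human and pellet diets (Nolc1 and Riok2).

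Of 31 initiation factors, 1 rose under the chimpanzee diet against pellets, Eif4b (0.45 ± 0.11 SE, adjusted p = 0.0093), whose mRNA in human cells also begins with a C and T tract. Of 11 elongation and nascent chain factors, Eef2, the translocase, rose (0.27 ± 0.086 SE, adjusted p = 0.045) and Eef1e1 fell (-0.30 ± 0.093 SE, adjusted p = 0.039). Of 15 RNA polymerase I genes, the catalytic subunit Polr1a rose (0.30 ± 0.083 SE, adjusted p = 0.020). Of 19 genes of growth control, 2 inhibitors of mTORC1 fell, Sesn3 (-0.77 ± 0.13 SE, adjusted p = 0.00039) and Ddit4 (-0.33 ± 0.10 SE, adjusted p = 0.039). These counts stand beside the same 2.93% higher and 7.43% lower over all genes, and 1 of 31 or 1 of 15 is not set apart from them. In the other pairwise comparisons 0 of these 4 lists' genes passed. With the beta-actin covariate Sesn3 was the 1 gene of these 4 lists that passed between chimpanzee and pellet diets. Between chimpanzee and pellet diets 5 of 12 macrophage markers fell without that covariate (1 with it, Cd68), by 0.682 (Cd68) to 1.16 (Vsig4), and the mean level of that list was 5.77 to 6.61 in the pellet mice and 4.85 to 6.15 in the chimpanzee mice. The hepatocyte regulator Hnf4a rose (0.59 ± 0.11 SE) as 1 of 10 hepatocyte markers tested. Of the lymphocyte markers 1 of 10 rose (Cd4), and of the erythroid markers 1 of 4 (Tfrc, the transferrin receptor, which also rose under the human diets against pellets). Of the endothelial, stellate and bile duct markers 2 of 12 fell (Col3a1 and Cdh5), and of the proliferation markers 0 of 11 passed. The other marker calls in this comparison were lost with the beta-actin covariate. The part of these cell types in the differences was not tested.

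Between the cafeteria and fast food diets, 0 of 44 members passed, and 1 gene of 13385 did (0.00747%). At an unadjusted p under 0.05 there was 1 member (2.27%) and 5.11% of all genes. Differences were positive in 39 of 44 members (88.6%), with a median of 0.064, whereas 45.7% of all genes were positive with a median of -0.011. The genes vary together over mice, so these signs are not separate observations. Without fast food batch 2 replicate 2, the mouse that lay lowest for the bright genes, the median of the members was -0.0052. Rps14, a small subunit protein, had the smallest p. It was 10.47 to 10.62 in the cafeteria mice (median 10.58) and 9.89 to 10.53 in the fast food mice (median 10.39), and 4 of 6 cafeteria mice lay above all fast food mice. The difference of 0.22 ± 0.10 SE (95% interval 0.0010 to 0.43) did not pass (adjusted p = 0.97), and it was 0.13 without that mouse. Rpsa, a small subunit protein first described as a laminin receptor precursor, differed by 0.17 ± 0.086 SE (0.098 without that mouse, adjusted p 0.998 with all mice), and Rpl35, at the exit of the peptide tunnel, by 0.17 ± 0.092 SE (0.087 without it, adjusted p 0.998 with all mice).

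Of the stalk proteins and Rpsa 0 passed in any comparison, against 0.00747% to 10.4% of all genes in the pairwise comparisons. Nothing particular to these few genes is read from that count. Rplp0, the base of the stalk, was 10.32 to 10.64 in the pellet mice (median 10.47), 10.27 to 10.515 in the chimpanzee mice (median 10.38), 10.18 to 10.61 in the cafeteria mice (median 10.475) and 9.83 to 10.61 in the fast food mice (median 10.40). Its ranges overlapped in all diets, and human and chimpanzee diets differed by 0.0035 ± 0.094 SE (95% interval -0.20 to 0.20). Its other differences were -0.087 ± 0.096 SE (human against pellet diets), -0.090 ± 0.0996 SE (chimpanzee against pellet) and 0.13 ± 0.0996 SE (cafeteria against fast food). Rplp2, which pairs with Rplp1 on the stalk, had medians of 10.16 (pellet), 10.18 (chimpanzee and fast food) and 10.19 (cafeteria), and human and chimpanzee diets differed by 0.0032 ± 0.10 SE (95% interval -0.22 to 0.22). Rpsa differed by -0.0100 ± 0.084 SE (95% interval -0.19 to 0.17). Rps2, at the highest signal, differed by 0.065 ± 0.062 SE and had the smallest residual SD of the bright genes (0.094). Rpl12, at the lowest signal, was 2.70 to 3.56 over all mice on the human diets and 2.71 to 3.17 in the chimpanzee mice, and passed the filter with 6 of 24 arrays. Rpl3l, the striated muscle paralog of Rpl3, was also near the filter level, at 2.93 to 4.20 in the chimpanzee mice and 2.73 to 4.16 in the human-diet mice (-0.14 ± 0.16 SE, adjusted p = 0.76), with 14 of 24 arrays above it.

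The residual SD of a member, the spread between mice after diet and batch, had a median of 0.17 (0.16 in the bright genes, range 0.094 to 0.21), against 0.19 for all genes. The 5 genes outside the list whose values over 24 mice were most like the members' mean, after removal of batch means, were Mgst1 (r = 0.92), Pgrmc1, Ambp, Fbp1 and Selenop (r = 0.91 each). They encode a microsomal glutathione transferase, a heme-binding membrane protein, a plasma protein precursor, a gluconeogenic enzyme and a selenium transport protein. Of these 5 genes 0 passed in any of the pairwise comparisons.

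Batch moved more of these genes than diet did. For the batch term 14 of 44 members passed (12 lower in batch 2 and 2 higher), against 78.3% of all genes. Of the bright genes 9 passed and 31 of 34 were lower in batch 2, with a median of -0.086 (range -0.26 to 0.059) against -0.12 for all genes. The largest bright difference was that of Rpl6, a large subunit protein (-0.26, adjusted p = 0.0021), and among the dim genes Rps6 was at -0.54 (adjusted p = 9.2e-05) and Rpl3l at 0.55 (adjusted p = 0.00027). The diet-by-batch interaction passed in 0 members and, at an unadjusted p under 0.05, also in 0, with 1.16% of all genes at that level.

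Probe sets of 1 gene did not always give the same difference, and 19 genes had at least 2 that passed the filter. The widest range was that of Rps24, a small subunit protein read by 6 probe sets, from -0.12 to 0.16 in human against pellet diets. Both ends came from dim probe sets (mean levels 3.92 and 3.00), while the 4 at 8.44 or above gave -0.039 to 0.022. Rpl13a, a large subunit protein with 4 probe sets, ran from -0.18 to 0.048 in human against chimpanzee diets, the lowest at a mean level of 5.16. Rpl27, with 3, ran from -0.27 to -0.058 in chimpanzee against pellet diets, and its brightest gave the smallest difference. Probe sets with names ending in _s_at or _x_at can bind transcripts of related sequences, whereas _a_at marks several transcripts of 1 gene. Of the 100 member probe sets 40 ended in _x_at, 3 in _s_at and 26 in _a_at. Together these 3 endings made up 66 of the 86 that passed and stood for 30 of the 44 genes. Processed copies of ribosomal protein genes are common in the mouse genome. Signal of such copies cannot be told apart from that of the named gene. For 14 probe sets of the rule that did not pass, mean levels were 2.40 to 2.99, and 9 of the 11 genes they belonged to had another that passed.

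**Figure D4:**
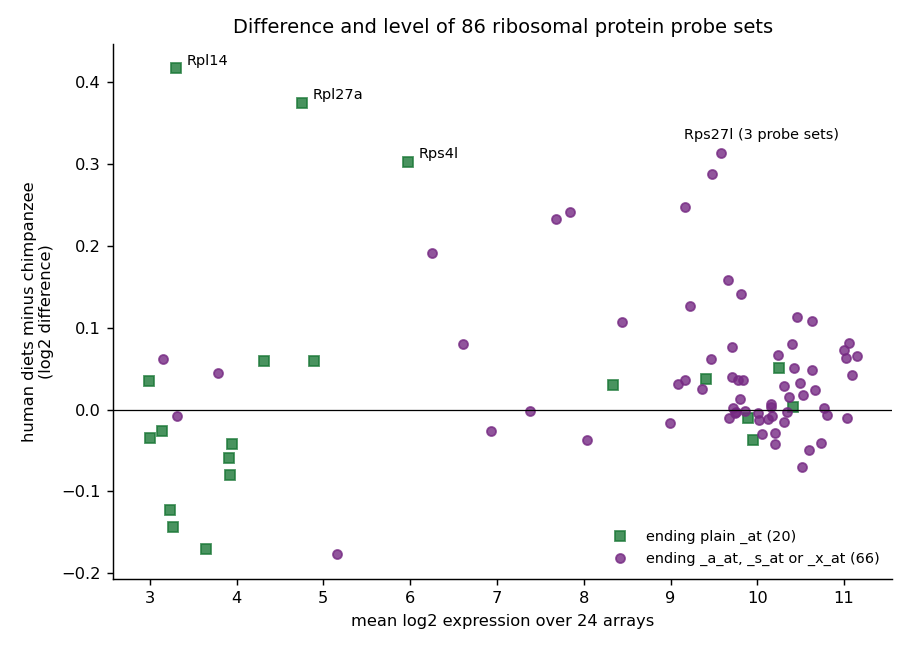
Difference between human and chimpanzee diets (log2) against mean log2 expression for 86 ribosomal protein probe sets, with green squares for 20 probe sets with a plain _at name and violet circles for 66 with the endings _a_at, _s_at or _x_at. Differences run from -0.18 to 0.42, most probe sets at a mean above 9 lie near 0, and the 3 probe sets of Rps27l lie at 0.25 to 0.31.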

How the data were processed

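The authors deposited log2 expression values of Affymetrix mouse genome arrays. By the study's methods they came from the rma routine of the package affy (robust multichip average). That routine corrects background, normalizes by quantiles and summarizes probes. The 90th percentiles of the deposited arrays nonetheless ran from 5.67 to 6.62, so the 24 arrays do not share 1 distribution. How they were normalized together is not known here. The version of affy is not given in the sources used here. Groups and batches came from the sample titles. Probe sets were named from a platform annotation, and those with several symbols were not used. Littermates were spread over the diets, but no label gives a litter, so p-values measure the spread between these mice. Probe sets above the median of all deposited log2 values (3.15) in at least 6 of 24 arrays were kept, and 1 per gene, that of highest mean, was fitted by lmFit and eBayes (limma 3.58.1, R 4.3.3). Batch was a covariate, and p-values were two-sided and adjusted by Benjamini-Hochberg over all 13385 genes, with calls at an adjusted p of 0.05. Human diets were compared in fits of 18 mice, other pairs in 1 fit of all 24. The number of arrays limits the precision. Fits were tested on simulated data.

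Members and lists were chosen with earlier results of these data known. Named were, per fit, called members of the same sign in both batches (up to 6, by size) or, with fewer than 3 called, the 3 of smallest p. The members of highest and lowest mean, the paralogs ending in l, the stalk proteins with Rpsa, the 3 genes whose probe sets disagree most, and the 5 outside genes most correlated with the members' mean were named whatever their values. Lists name up to 3 called genes each by size, and further called genes named in the text were chosen after their values were seen. Alternatives covered filters, probe set choice, batch, a replicate block, normalization, array covariates and weights, the procedure of the study's methods, and each mouse left out. A beta-actin covariate for the lists was added after the data were seen.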

Additional observations from a re-analysis of the deposited data

Results flagged for a closer look

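In 5 of 56 groups of 6 mice examined (13 named genes and the mean of the bright genes, in 4 diets) 1 mouse lay apart from the other 5, and chance gives about 1 in 20 such groups. The gap to the nearest mouse, set against the range of the group, exceeded Dixon's critical value in each. Fast food batch 2 replicate 2 lay low for Rps27l (9.17, nearest 9.74) and Rps14 (9.89, nearest 10.34). Cafeteria batch 2 replicate 3 lay low for Rps27l (9.35, nearest 9.73). Pellet batch 2 replicate 2 lay low for Rps4l (5.22, nearest 6.22), and pellet batch 1 replicate 1 lay high for Rpl27a (5.43, nearest 4.75).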

How the results depend on the processing

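The count of ribosomal protein genes called across the 4 diets was 1, against 9% of all genes. That gene was Rpl14, which passed the filter only through the human-diet mice, so counts that hold it are not results for the list. The count was 0 in batch 1 alone (all genes 5.57%), in batch 2 alone (0.105%) and with the beta-actin difference as a covariate (3.66%). The count was 2 after quantile normalization (14.4%), with the 90th percentile as a covariate (17.3%) and without the 4 arrays of lowest range (13.1%). With array weights it was 3 (20.2%), and with 1 mouse left out 1 to 2 (6.87% to 12.8%). For human against chimpanzee diets the count was 1, against 1.49% of all genes. It was 0 with batch left out (all genes 0.254%), in batch 1 alone (0.799%), in batch 2 alone (0.00747%) and with the beta-actin covariate (0.0374%). With array weights the count was 2 (9.5%). By the methods' procedure, an unmoderated linear model at an unadjusted p of 0.01, it was 2 (6.1%). With 1 mouse left out it was 0 to 2 (0.463% to 4.95%). It was 0 without each of chimpanzee batch 1 replicates 1, 2 and 3, batch 2 replicates 1 and 2, and cafeteria batch 1 replicate 2, and 2 without fast food batch 2 replicate 2 or cafeteria batch 2 replicate 3. For human against pellet diets the count was 0, against 4.98% of all genes. It was 1 after quantile normalization (all genes 8.68%) and without the 4 arrays (8.79%). The count was 2 with the 90th percentile covariate (10.4%) and with array weights (9.88%). With each mouse left out in turn it stayed 0 (3.29% to 6.42%). By the methods' procedure the count was 1 for chimpanzee against pellet (Rps24, all genes 13.5%) and 1 for cafeteria against fast food (Rps14, all genes 1.79%). After Benjamini-Hochberg adjustment it was 0 for both. In the main fits with 1 mouse left out it was also 0 for both. As run here the methods' procedure differs from the study's: the median level in at least 2 arrays stood in for its detection filter, probe sets with no single gene were not entered, and chimpanzee against pellet and cafeteria against fast food were contrasts in a model of all 24 mice. Fewer mice enter a single batch or a fit without 4 arrays. The cause of the changes, in those fits as in the others, was not tested. With the replicate number within batch as a block, 1 gene passed across diets and 1 between human and chimpanzee diets. Deviations of same-numbered mice correlated at a median of 0.012 (36 pairs, -0.635 to 0.407). Those of others correlated at -0.024 (72 pairs, -0.549 to 0.634). The pairs share mice and no label gives a litter, so whether the numbers pair mice is not known. The medians over the members moved by less than the spread between mice (SD 0.12) under every alternative run, mice left out included, some with a change of sign (human against chimpanzee diets -0.043 to 0.084, human against pellet diets -0.0098 to 0.067, chimpanzee against pellet -0.0515 to 0.030, cafeteria against fast food -0.0052 to 0.107). That spread exceeds the main medians themselves (0.012 to 0.064 in size), so it cannot show that they are stable. Array signal near the filter level limits Rpl14, Rpl12, Rpl3l and Rps27.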
